A study of Mus musculus with 2 samples.

Results

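The regions described here are H3K27ac peaks that lay inside exons of protein-coding genes but far from any place where such a gene starts. A peak was taken when its midpoint was over 2.5 kb from every annotated transcript start of a protein-coding gene and fell in an exon of a protein-coding gene. Of the 32877 peaks in the list made from both libraries, 602 met the rule, which is 1.83% of the list. For comparison, 9189 peaks over 2.5 kb from starts had their midpoint in an intron and 8435 lay between genes.

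H3K27ac, the acetylation of lysine 27 of histone H3, was profiled by chromatin immunoprecipitation and sequencing in macrophages grown from bone marrow of C57BL/6J mice and left without stimulation. There was 1 group of 2 biological replicates, taken from separate biosamples that name a single donor, and the spread between them may leave out differences between animals. Each library used 10 ng of starting DNA, and age, sex and stage were unknown or not collected. With no second condition, values are compared between the replicates, between classes of exon and with intronic peaks, and no test between groups was possible. All 10 macrophage markers examined, among them Spi1, Csf1r and Adgre1, had a promoter peak in both replicates, as did 1 of 5 T cell markers (Cd3d) and none of 5 B cell, 5 neutrophil or 5 fibroblast markers.

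H3K27ac is laid down mainly by the acetyltransferases p300 and CBP and is found at active promoters and enhancers. Most enhancers lie in introns or between genes, but enhancers can also overlap exons, where the same bases may carry protein code or an untranslated region and binding sites for transcription factors. In macrophages, PU.1, C/EBP, AP-1, IRF and RUNX factors are the best known proteins that bind such sites. Broad acetylated domains can also spread from a promoter into the first exons of a gene.

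The following 30-base stretches show what such sites look like inside exons. They were taken from the genome sequence around the midpoint of described peaks, and the capitals mark a short word of a transcription factor's known binding preference. Every base of each stretch lies in an exon of the class named beside it. A word match is a description of the letters and does not show that the factor was bound. The first 2 lie in exons of Nckap1l and Gm29666 and hold the PU.1 word GAGGAAGT, the next 3 hold the AP-1 word TGACTCA, the next 2 are both in the 3′ UTR under the Klf6 peak and hold the C/EBP word TTGCNCAA, and the last holds the IRF word GAAANTGAA.
Nckap1l, coding, chr15:103462697-103462726, minus strand: ctccgaacaaaGAGGAAGTgcagagagagc
Gm29666, 5′ UTR, chr15:84916760-84916789, plus strand: aagttggaggcGAGGAAGTgtctggattct
Arid1b, coding, chr17:5327680-5327709, plus strand: tcagacgtgagTGACTCAgcgtacccaaaa
Zeb2, exon of non-coding transcripts, chr2:45106572-45106601, minus strand: tcctcagccgccTGACTCActttgtaacac
Tmem72, 3′ UTR, chr6:116680925-116680954, plus strand: caaagctctccTGACTCAgagatgagggga
Klf6, 3′ UTR, chr13:5868872-5868901, plus strand: tttaagagaccTTGCACAActgtacagatc
Klf6, 3′ UTR, chr13:5869020-5869049, plus strand: atgtcaatatcTTGCTCAAaaggcacaagt
Traf6, 3′ UTR, chr2:101699060-101699089, minus strand: tggaagcagggGAAAATGAAgaggtcaaag

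Exonic peaks were placed in 4 classes by the base under the midpoint. The 3′ UTR held 310 of them (51.5%, 95% Wilson interval 47.5 to 55.5) and coding sequence held 163 (27.1%, 23.7 to 30.8). A further 122 (20.3%, 17.2 to 23.7) lay in exons found only in a gene's transcripts not typed as protein-coding, such as retained-intron ones. Such transcripts are called non-coding here, whether or not they carry an annotated coding part. The 5′ UTR held 7, as the distance to starts leaves little of it. Intervals here and below cover counting error only.

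Per length of sequence, exons carried about as many peaks as introns. Beyond 2.5 kb from starts, exons made up 6.33% of the bases of protein-coding genes and held 6.15% of the peaks in them. The density was 10.9 peaks per Mb in exons and 11.2 per Mb in introns, a ratio of 0.970 in the list made from both libraries. In the replicates' own lists the ratio was 0.945 and 0.972 (mean 0.958 ± 0.019, SD, n = 2). The densities were not matched for distance to starts or for host gene. Median distance from the midpoint to a start was 7353.5 bp for exonic and 12701 bp for intronic peaks.

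The 3 larger classes of exon differed from one another in density more than the replicates did. The 5′ UTR, with 7 peaks, had a ratio to introns of 1.39 in replicate 1 and 2.53 in replicate 2 and is left out of that statement. Coding sequence had 8.0 peaks per Mb, 0.713 times the intronic density, with 0.685 in replicate 1 and 0.727 in replicate 2. The 3′ UTR had 11.9 per Mb, 1.06 times the intronic density, with 1.06 in replicate 1 and 1.04 in replicate 2. Exons of non-coding transcripts had 14.4 per Mb, 1.29 times the intronic density, with 1.19 and 1.27 in the replicates. Coding sequence was the only one of these 3 classes below introns in all 3 lists, and the ranges of the classes over the replicates did not overlap. The replicates name a single donor and cover the same sequence, so their spread does not measure counting error. The densities rest on 163, 310 and 122 peaks in this order, and no interval was computed for them. Whether the classes differ beyond counting error was thus not tested.

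**Figure D1:**
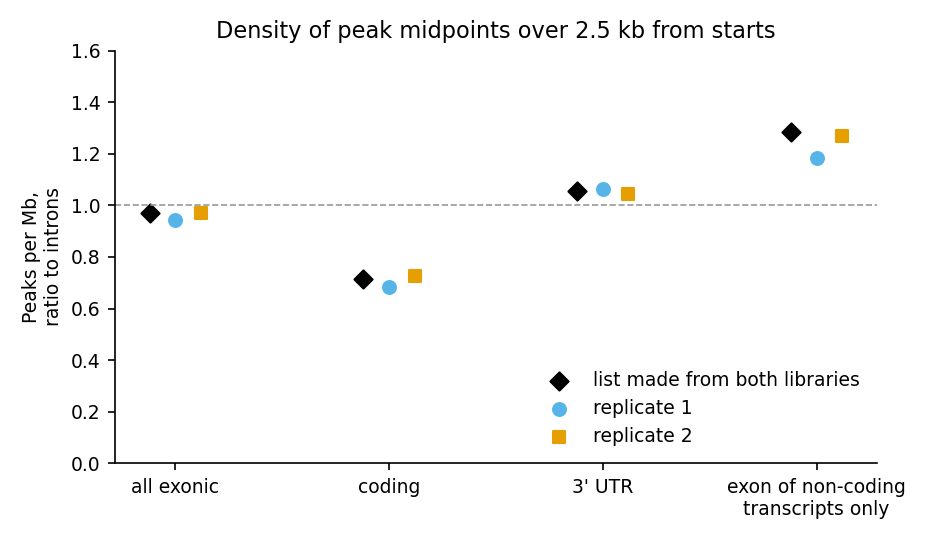
Peak midpoints per Mb in exons, divided by the same density in introns, for all exonic sequence and 3 classes of exon over 2.5 kb from starts; each point is 1 peak list and the dashed line marks equal density. The coding points lie between 0.685 and 0.727, the 3′ UTR points between 1.04 and 1.06, and those of non-coding transcripts between 1.19 and 1.29.

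A coding peak was usually larger than the exon under it. Here exons of protein-coding genes that overlapped or adjoined, in any transcript, were joined and counted as a single exon. The exon at the midpoint had a median length of 196 bp for coding peaks. The peaks themselves had a median width of 952 bp (95% interval of the median 769 to 1129). Of the 163 coding peaks, 122 (74.8%) were wider than that exon and 18 (11.0%) lay wholly inside it, and a median of 30.5% of a coding peak's bases were exonic. The authors' summit, the base of highest enrichment, fell in an exon for 89 of them (54.6%). In the 3′ UTR the picture was the reverse: the median exon was 3198 bp long, 183 of 310 peaks (59.0%) lay wholly inside it, and the summit was exonic in 283 (91.3%).

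Among the 18 coding peaks held entirely by their exon, the highest was in Utp14b, with a fold of 10.6 and folds of 9.46 and 10.4 in replicates 1 and 2. Next came Chd9, a chromatin remodeller, with 7.79 (8.26 and 6.54 in the replicates). Tmpo, which encodes a protein of the nuclear lamina, had 5.84 (5.45 and 5.70). Of these 18, 7 were overlapped by no peak of either replicate.

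**Figure D2:**
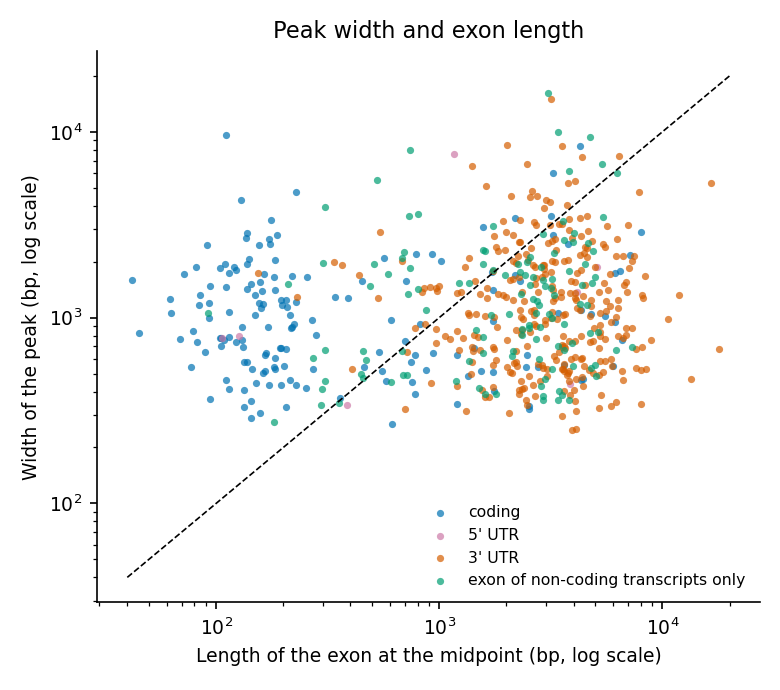
Width of each of the 602 exonic peaks against the length of the exon at its midpoint, both in bp on log scales. Colours give the class of exon, overlapping exons were joined, and the dashed line marks equal length. Most coding peaks lie above the line, with a median exon of 196 bp, and most 3′ UTR peaks lie below it, with a median exon of 3198 bp.

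Over all classes together, the share of exonic peaks near a transcript end was a few points above that of exonic sequence. The midpoint was within 1 kb of an annotated end of a host gene's transcript in 345 of 602 (57.3%, 53.3 to 61.2), between 1 and 2.5 kb in 130, between 2.5 and 10 kb in 87 and over 10 kb away in 40. The last exon of a transcript held 440. The share within 1 kb was 70.0% (64.7 to 74.8) in the 3′ UTR and 65.6% (56.8 to 73.4) in exons of non-coding transcripts. In coding sequence it was 29.4% (23.0 to 36.9).

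Set beside the sequence available, the shares of peaks were a few points above the shares of bases. Counting the ends of any protein-coding gene, 57.6% of exonic peaks and 51.0% of exonic bases lay within 1 kb. For 3′ UTRs the values were 70.3% of peaks and 66.4% of bases, and for coding sequence 30.1% and 28.0%. Both shares of bases lie inside the intervals given above for these classes of peaks, counted by the host's ends. Within these classes, no excess of peaks near ends beyond counting error is thus shown. The annotation holds many short transcripts, and with the gene's own 3′-most end alone the share of peaks within 1 kb of the host's end fell to 25.2%. For any gene's 3′-most end it was 26.6% of peaks against 23.2% of exonic bases, with 27.1% and 27% of peaks in replicates 1 and 2.

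**Figure D3:**
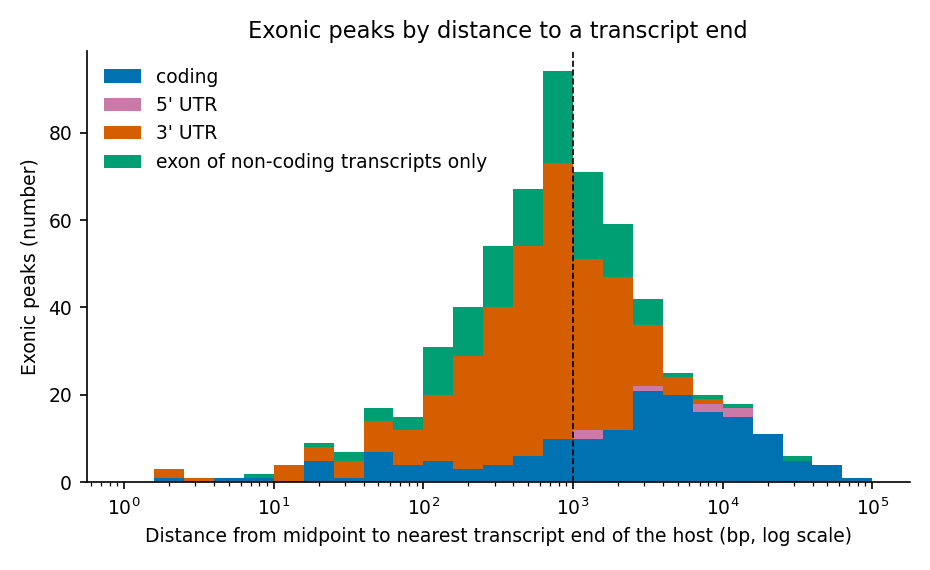
Number of exonic peaks by distance from the midpoint to the nearest annotated transcript end of the host gene (bp, log scale), stacked by class of exon; the dashed line marks 1 kb. The 3′ UTR peaks have a median of 639.5 bp and the coding peaks a median of 2945 bp.

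Peaks far from ends and near them had close values of strength and support. The median fold was 4.92 within 1 kb of an end and 5.43 over 10 kb away. Both replicates overlapped 67.2% of the former and 67.5% of the latter. Of the 40 peaks over 10 kb from an end, 36 were coding. The highest of the 36 were in Pkd1l2, which encodes a polycystin-like membrane protein, at 28.6 (27.5 and 26.7 in replicates 1 and 2), and Arid1b, a subunit of the BAF chromatin remodelling complex, at 20.3 (20.0 and 19.9). Map4, which binds microtubules, followed at 17.3 (17.5 and 14.9), and Rell1 at 15.0 (14.5 and 13.7).

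Strength and width were close to those of intronic peaks. The deposited fold, the authors' own linear enrichment over control, had a median of 5.10 (4.73 to 5.57) in exonic peaks and 5.19 (5.10 to 5.29) in intronic ones. Ranked within the whole list, the median exonic peak was at percentile 39.9 (35.9 to 44.4) and the median intronic peak at 40.9. The median width was 1046.5 bp (960 to 1170) against 1139 bp (1114 to 1162). The top 10% of the list by fold held 40 exonic peaks (6.64%, 4.92 to 8.92) and 8.53% of intronic ones. By class, the median fold ran from 4.64 in coding sequence to 5.10 in the 3′ UTR and 5.89 in exons of non-coding transcripts, with overlapping intervals.

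Over all peaks, 74.5% were overlapped by a peak of each replicate. Of the exonic peaks 410 were (68.1%, 64.3 to 71.7), close to the 69.4% of intronic peaks. A further 94 were overlapped in 1 replicate and 98 in neither. The list was itself made from both libraries, so this overlap is not an independent repeat. Support rose steeply with fold. When the list was divided by fold percentile into 5 groups of 6486 to 6752 peaks, with tied folds kept together, the lowest reached 3.62, and in it both replicates overlapped 13.6% of 184 exonic peaks and 12.4% of intronic ones. In the second group the shares were 73.7% and 72.7%, in the third 98.2% and 99.2%, and from 7.89 upward every exonic peak was overlapped in both.

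Where both replicates had a peak, their folds ranked the regions alike, with a Spearman correlation of 0.909 across the 410 peaks, which share 2 libraries and are not independent. The replicate folds were within 1.5 times of each other in 95.4% and further apart in 19. The widest gap was at C5ar1, the receptor for complement C5a. Its 3′ UTR peak had a fold of 4.92, with 4.03 in replicate 1 and 26.1 in replicate 2, where the overlapping peak shared under 50% of the length. Likewise Rgs1, a regulator of G protein signalling, had 14.2 in replicate 1 and 4.36 in replicate 2. In 8 of the 19, including these, a replicate's peak failed an overlap of 50% of both peaks.

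The 98 peaks that neither replicate overlapped were narrow and weak. Their median width was 453 bp and their median fold 2.95, against 1486.5 bp and 7.34 for those overlapped in both. The highest were in Stag1, a cohesin subunit, at 3.99, then Il16 and Setd7 at 3.71, a 3′ UTR shared by Fdft1 and Ctsb at 3.71, and Ifit3, an interferon-induced gene, at 3.63. None of these 98 exceeded 3.99.

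The 10 exonic peaks with the highest fold came from all 4 classes and all were overlapped in both replicates. Of these 10, 6 were wide enough to cover a transcript start despite their distant midpoint, and the Zeb2 peak came within 1 kb of one without covering it. The other 3 were at Fam53b, Arhgap19 and Mknk1.

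Fam53b, whose product has been tied to nuclear import of β-catenin, had the highest peak that did not reach a promoter window. It lay in the 3′ UTR at chr7:132712822-132715493, 62759 bp from the nearest start and 792 bp from a transcript end. Its fold was 49.6, with 44.6 in replicate 1 and 46.8 in replicate 2, so it ranked 60th of 32877. The best intronic peak of the same gene had 13.8.

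Arhgap19 had a coding peak at chr19:41769353-41778923, 27909 bp from the nearest start. The fold was 47.3, with 45.0 in replicate 1 and 45.7 in replicate 2. This domain was 9571 bp wide and its midpoint exon 111 bp long, so only 10.8% of its bases were exonic. Mknk1, a kinase of the translation factor eIF4E, had 39.7, with 35.3 and 38 in the replicates. The midpoint of its peak lay in the last exon of a non-coding transcript, 8470 bp from a start. That peak was 5509 bp wide, only 9.58% of its bases were exonic, and its summit lay outside exons. The best peak placed in an intron of Mknk1 had 2.71.

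**Figure D4:**
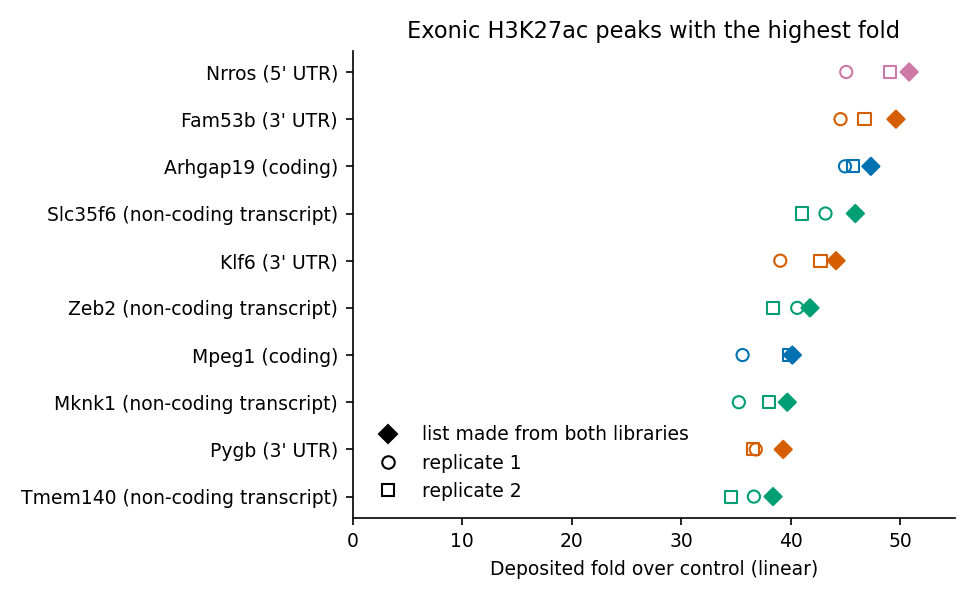
Deposited fold over control, on a linear axis from 0, of the 10 exonic peaks with the highest fold, in the list made from both libraries (filled) and in each replicate's own list (open), coloured by class of exon. Replicate values lie between 34.5 for Tmem140 and 49.1 for Nrros, and in each row both lie below the value of the joint list.

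Peaks that spread to a promoter were few. With a midpoint over 2.5 kb from every start, such a peak must be wide to come within 1 kb of one. Fold rose with width over exonic peaks (Spearman correlation 0.811). The part of width in the folds below was not tested. A peak reached within 1 kb of a start in 15 of 602 cases, with medians of 34.5 for fold and 6746 bp for width, and 10 of these covered the start. Among them were Nrros, a myeloid regulator of reactive oxygen species, at 50.8 (45.1 and 49.1 in the replicates), and Klf6, an early-response transcription factor, at 44.2 (39.1 and 42.7) over 14990 bp. Mpeg1, which encodes the pore-forming protein perforin-2, had 40.2 (35.6 and 39.9). Tmem140 had the widest domain, 16156 bp, at 38.4 (36.7 and 34.5). Without the 15, the median fold of exonic peaks was 5.01.

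Strong peaks elsewhere in 3′ UTRs included Polr1a, the largest subunit of RNA polymerase I, at 38.3 (34.3 and 36.3), 19628 bp from a start. Rin2, an exchange factor for the endosomal GTPase Rab5, had 37.3 (34.8 and 34.5), 15192 bp away. Of the bases of the Rin2 peak 25.6% were exonic, and its summit lay outside exons. In coding sequence, Spen, a large transcriptional repressor, had 30.2 (28.4 and 28.0). Its peak lay in an exon of 8020 bp, and 90.5% of its bases were exonic.

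The 5 exonic peaks farthest from starts had folds from 3.14 to 9.93, on both sides of the median of 5.10 over all exonic peaks. Gpc6, a glypican of the cell surface, held one 402188 bp from the nearest start, with a fold of 9.93 (8.60 and 9.89). Bcl2, the anti-apoptotic gene, held one in its 3′ UTR at 172702 bp, with 6.37 (6.88 and 5.79). Dock4 at 139381 bp and Lpp at 146816 bp had 4.02 and 3.14 and were overlapped in replicate 1 alone. Myo16 at 361112 bp had 3.34 and was overlapped in neither.

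The 5′ UTR class was led by Nrros and then Gm29666 at 11.9 (11.8 and 10.6) and Olfr1226, an odorant receptor gene, at 10.9 (10.7 and 9.38). Sympk, a scaffold of the mRNA 3′ end processing machinery, had 6.31 (5.33 and 6.62). Ethe1, a mitochondrial sulfur dioxygenase, had 5.38 and a peak in replicate 1 alone, at 5.16. Near the distance limit of 2500 bp, Ptgir, Olfr1226 and Mpeg1 were just inside, at 2508, 2511 and 2529 bp, with folds of 13.2, 10.9 and 40.2. Lcmt1, Btg1 and Clec1b were just outside, at 2490, 2480 and 2470 bp, with folds of 15.9, 4.08 and 3.8.

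The 602 peaks lay in 562 host genes, 2.56% of the 21938 protein-coding genes. Of these, 511 held 1 peak, 49 held 2, and Unc13a and Senp8 held 3. In 13 cases the midpoint lay in exons of a pair of overlapping genes, and the nearest start belonged to another gene than the host for 152 (25.2%), among them 111 of the 310 in 3′ UTRs (35.8%). The host is thus a statement of position and not of which gene a region acts on.

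Host genes usually had an acetylated promoter. A peak of each replicate lay within 1 kb of a start in 422 of 562 (75.1%, 71.4 to 78.5), against 39.4% of all protein-coding genes and 69.4% (67.8 to 70.9) of the 3443 genes with an intronic peak. The hosts of exonic peaks had a median length of 36438.5 bp, those of intronic peaks 65034 bp and all genes 17425 bp, and the part of gene length in these shares was not tested. In 121 hosts neither replicate had a promoter peak. The strongest exonic peaks of such genes were in Tmem72 at 30.6 (26 and 30.8), Pkd1l2, 4930595D18Rik at 23.9 (21.4 and 22.7), the adhesion molecule gene Clmp at 23.0 (21.7 and 21.6), and Spaar, which encodes a small lysosomal polypeptide, at 21.9 (19.3 and 21.3).

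An intronic peak over 2.5 kb from starts was also present in the host for 316 exonic peaks. In 94 of them (29.7%) the exonic peak had a higher fold than the best intronic one. The medians were 5.53 for these exonic peaks and 11.9 for the best intronic peak, which is the highest of all such peaks in a gene. Msr1, a macrophage scavenger receptor, was among the 94, with 18.8 in coding sequence (17.1 and 15.5) against 11.1 in its introns. Arid1b went the other way, with 20.3 in the exon and 36.7 in an intron.

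Genes of macrophage identity held exonic peaks in 8 of 50 cases (16.0%, 8.34 to 28.5), where 2.56% of all genes did. They were the transcription factors Maf and Irf8, the receptors Csf1r, Fcgr3, Trem2, Msr1 and C5ar1, and Mpeg1. This list and those below were chosen with earlier results of these data known, so their shares are descriptive only. All 8 hosts had a promoter peak, while 39.4% of all protein-coding genes had one in both replicates. The part of this difference in the shares was not tested. Maf had 33.9 in a 3′ UTR (30.3 and 31.8), and Irf8 had 23.4 (21.7 and 21.7) in a domain of 9940 bp that covered a start. Fcgr3, a receptor for immunoglobulin G, had 12.4 (11.9 and 11.1). The Csf1r peak lay in a 3′ UTR where Hmgxb3 also has an exon, at 4.22 (4.82 and 4.02). Trem2, a lipid-sensing receptor, had 2.68 with no peak in either replicate. The 9 peaks of this list had a median fold of 12.4, beside 5.10 for all exonic peaks, and 7 were overlapped in both replicates.

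Lysosome and phagocytosis genes were hosts in 10 of 72 cases (13.9%, 7.72 to 23.7), beside 2.56% of all genes. Their 12 peaks had a median fold of 4.41, beside 5.10 for all exonic peaks, and 6 of the 12 were overlapped in both replicates, beside 68.1% of all exonic peaks. Lcp1, an actin-bundling protein of leukocytes, had 11.1 (12.7 and 8.65) in a gene whose best intronic peak reached 47.6. Nckap1l, the haematopoietic subunit of the WAVE actin regulator, held a pair of coding peaks, at 10.3 (9.98 and 9.72) and 7.98 (7.92 and 7.21), both above its best intronic peak at 4.45. Lamp2, Neu1, Lyn and the shared Fdft1 and Ctsb 3′ UTR had peaks between 2.78 and 3.71 that neither replicate overlapped.

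Pattern recognition and NF-κB signalling had 4 hosts of 63 (6.35%, 2.5 to 15.2), an interval that just includes the 2.56% of all genes. All 4 had peaks in both replicates. The highest were Tnip3, an NF-κB inhibitor, at 14.6 (13.6 and 14.1), and Traf6, a ubiquitin ligase of Toll-like receptor signalling, at 9.28 (9.13 and 7.51). The adaptor Myd88 had 6.03 (5.85 and 5.36) and Traf5 3.46 (3.96 and 3.52). Inflammatory mediators and early-response genes had 3 of 71 (4.23%, 1.45 to 11.7), an interval that includes the 2.56% of all genes. They were Klf6, the mRNA decay factor Zfp36l2 at 26.5 (21.1 and 28.1) and the anti-apoptotic gene Mcl1 at 25.4 (23.1 and 25.8).

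Interferon response genes had 4 hosts of 56 (7.14%, 2.81 to 17.0), beside 2.56% of all genes. The regulator Irf4 had 9.18 (8.26 and 8.88) and Irf2 had 8.44 (5.85 and 9.72), while Irf5 and Ifit3 had 2.97 and 3.63 with no peak in either replicate. Transcription and chromatin regulators had 5 of 70 (7.14%, 3.09 to 15.7), led by Zeb2, a macrophage transcription factor, at 41.8 (40.6 and 38.4), and Irf2bp2, a corepressor, at 30.1 (26.8 and 29). Bhlhe41, Mbnl1 and Arid1a were the others. Cholesterol and lipid genes had 1 of 40 (2.5%, 0.443 to 12.9), close to the share of all genes. It was Scd2, at 2.60 with a peak in replicate 2 alone, at 2.96.

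Genes of other cell types gave 1 host. Among 22 fibroblast genes only Acta2, smooth muscle actin, held a peak, at 4.45 with 4.86 in replicate 2 and none in replicate 1. None of 22 neuronal, 20 epithelial and liver, 18 muscle, 28 T, B and NK cell or 19 neutrophil genes did. A count of 0 of these allows shares of up to 12.1% to 17.6% by the Wilson interval, so these short lists do not separate them from the 2.56% over all genes. The lists differ in gene length, with medians from 3887 bp for neutrophil genes to 99428 bp for neuronal ones, and its part in the counts was not tested.

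Starts of genes that are not protein-coding were near a few exonic peaks. The midpoint was within 1 kb of such a start in 23 (3.82%, 2.56 to 5.67), beside 2.66% (2.35 to 3.0) of intronic peaks. These included 9 antisense genes and 6 microRNA genes. By class, 17 of the 23 were in 3′ UTRs.

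Over all classes together, the sequence under exonic peaks was richer in G and C than that of introns with peaks. In 500 bp around the midpoint, median GC content was 47.6% (46.8 to 48.4) in exonic peaks, 46.0% (46.0 to 46.2) in intronic peaks and 45.2% in exons without a peak. Coding peaks had 49.2% (48.2 to 50.4), against 45.8% in coding exons without a peak. Peaks in 3′ UTRs had 47.1% (45.6 to 48.2), against 43.6% in 3′ UTRs without a peak. Those in exons of non-coding transcripts had 45.6% (44.0 to 47.8). Of these 3 classes, only coding peaks had an interval wholly above the median of intronic peaks. The ratio of observed to chance CpG was 0.225 in exonic peaks, 0.187 in intronic ones and 0.263 over all peaks. In exons without a peak, which were mostly coding, it was 0.244 (0.243 to 0.245), above the 0.225 (0.216 to 0.234) of exonic peaks. Within classes this order was not kept. Coding peaks had 0.269 (0.245 to 0.307) and coding exons without a peak 0.254. In 3′ UTRs the values were 0.211 (0.191 to 0.226) in peaks and 0.206 in exons without one. A GC content of at least 50% with a CpG ratio of at least 0.6, as in CpG islands, was met by 6 exonic peaks (0.997%) and by 11.5% of all peaks.

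Words of macrophage transcription factors were counted on both strands in the 300 bp around the midpoint. Of these windows, 76.7% in coding peaks and 94.0% in coding exons without a peak also held bases outside exons. In 3′ UTRs 7.42% and 9.39% did. Exons without a peak were mostly coding, 95413 of 119149, so the values by class compare more alike sequence. The PU.1 word GAGGAAGT was in 31 of 602 exonic peaks (5.15%, 3.65 to 7.22), in 6.02% (5.55 to 6.52) of intronic peaks and in 1.86% (1.79 to 1.94) of 119149 exons without a peak. In coding exons it was in 6.75% (3.81 to 11.7) of peaks and 1.90% of exons without one. In 3′ UTRs the shares were 2.90% (1.53 to 5.42) and 1.74% (1.53 to 1.97), which overlap within counting error.

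The AP-1 word TGACTCA was less frequent in exonic than in intronic peaks. It was in 6.48% (4.78 to 8.73) of exonic peaks, 10.4% (9.83 to 11.1) of intronic peaks and 4.51% (4.39 to 4.63) of exons without a peak. The RUNX word TGTGGTTT was in 1.99% (1.14 to 3.45), 3.67% (3.30 to 4.07) and 2.05%. The C/EBP word TTGCNCAA was in 2.33% (1.39 to 3.87), 3.99% (3.61 to 4.41) and 2.62%, and in none of the 163 coding peaks, which allows up to 2.30% by the Wilson interval, against 2.52% of coding exons without a peak. In 3′ UTRs it was in 12 of 310 peaks (3.87%, 2.23 to 6.64) and 3.40% of exons without a peak. By class, the RUNX word was in 3.07% (1.32 to 6.98) of coding peaks and 1.92% of coding exons without a peak. In 3′ UTRs the RUNX shares were 1.29% (0.503 to 3.27) and 2.67%. The AP-1 word was in 5.52% (2.93 to 10.2) of coding peaks against 4.37%, and in 6.13% (3.96 to 9.37) of 3′ UTR peaks against 4.76%.

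The IRF word GAAANTGAA was in 4.49% (3.10 to 6.45) of exonic peaks, 3.77% of intronic peaks and 2.95% of exons without a peak. By class, it was in 3.07% (1.32 to 6.98) of coding peaks and 2.97% of coding exons without a peak. In 3′ UTRs the IRF shares were 4.52% (2.71 to 7.44) and 2.84%, so both classes overlap within counting error. The word CCACNAGG, part of the preference of the insulator protein CTCF, was in 7.31% (5.49 to 9.67) of exonic peaks, 4.84% (4.42 to 5.30) of intronic peaks and 4.93% of exons without a peak. The words TGACGTCA of CREB-type factors and TCACGTGA of MITF-type factors were in under 1% of exonic peaks, 3 and 2 of 602. The letters of these words differ in GC content, and the part of the difference in base composition in these shares was not tested.

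**Figure D5:**
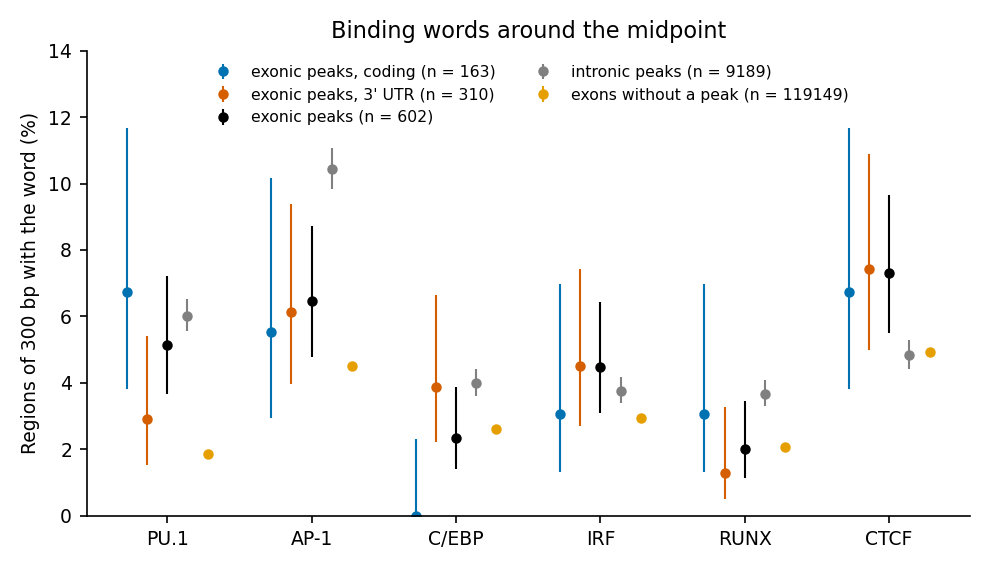
Percentage of 300 bp windows that hold each word, with 95% Wilson intervals, for coding, 3′ UTR and all exonic peaks, intronic peaks and exons without a peak. The PU.1 word is in 5.15% of exonic peaks and 1.86% of exons without a peak, and the AP-1 word in 6.48% of exonic and 10.4% of intronic peaks.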

How the data were processed

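The deposited peak lists, on mm10, comprise 1 list for each replicate, called on its own alignments, and a replicated and a pooled list called on both libraries together, as their accompanying text files state. The authors' fold for each peak is a linear ratio to control or background. Their q-value for each peak was deposited on a −log10 scale. Aligner, caller and read depth are not given in the sources used here. Replicates 1 and 2 had 29543 and 29345 peaks.

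Positions are 1-based on GRCm38.p6, with gene models of GENCODE M21 (21938 protein-coding genes, 93459 distinct transcript starts) and sequences from the NCBI RefSeq copy of that assembly. Where classes overlapped, coding was taken before UTR and UTR before exons of non-coding transcripts. A replicate's fold is the highest among its peaks that overlapped by at least 1 bp. Shares have 95% Wilson intervals and medians have order-statistic intervals. Placement was checked on simulated peaks. Exonic peaks were named as the 10 highest, the 5 highest or most extreme of each class or property, those at the distance limit, hosts of 3, and hosts in the gene lists; Utp14b, Chd9, Tmpo and Rgs1 were chosen after their values were seen. The members, lists and rules were chosen with earlier results of these data known. Alternatives covered distance, annotation, peak list, threshold, placement and each replicate. Python 3.11.15, pandas 2.3.3 and pysam 0.24.0 were used.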

Additional observations from a re-analysis of the deposited data

How the results depend on the processing

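No paired analysis was possible because there is 1 group. The count of exonic peaks was 602 and became 382 with starts over 5 kb away; no other setting run moved it by over 1.5 times, the highest being 880 with starts over 1 kb away. The coding share of 27.1% became 34% with exons of protein-coding transcripts alone and 13.9% when at least 50% of the peak had to be exonic. The share within 1 kb of a transcript end, 57.3%, became 64.6% under that last setting, 35.2% and 78.9% with 500 bp and 2.5 kb, and 25.2% with the 3′-most end of the host. Overlap in both replicates, 68.1%, became 71.8% with starts over 1 kb away, 73.5% at a −log10 q of at least 5 and 56.6% with 50% of both peaks. The median fold percentile of 39.9 became 45.8 with starts over 1 kb away. The share of hosts with a promoter peak, 75.1%, became 79.1% with starts over 1 kb away and 79.4% with starts of protein-coding transcripts alone. With 1 replicate's list in turn, the count was 517 to 526, the coding share 26.7% to 27.6% and the share near an end 56.1% to 56.9%. The overlap with the other replicate was 86.7% to 89.4% and the median width 907 to 1034.5 bp. The percentile was 38.9 to 40.01 and the promoter share 78.8% to 80.1%. That promoter share asks for a peak in the 1 replicate used, while the main 75.1% asks for a peak in both. Placement by the summit and leaving out peaks that reach a promoter were chosen after seeing the data and gave 601 and 587 peaks. For the values that moved, the cause was not tested. Depth is unknown, and an exon outside the peaks may carry H3K27ac below the caller's threshold.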
